A study of Mus musculus with 8 samples.

Results

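Effector Th1 cells were compared with effector Th17 cells, 2 subsets of CD4 T cells that had been derived *in vitro* from the same kind of naïve cell under different cytokines. The comparison holds 4 of the 8 RNA-sequencing libraries of the series, 2 per subset, chosen by their labels alone. The 2 naïve and 2 Th2 libraries served as reference levels. Expression is given as FPKM, the fragments of a gene scaled for gene length and library depth, and the Th17 minus Th1 difference is on the log2(FPKM + 1) scale, where changes of scarce genes appear smaller than they are.

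The donors were DO11.10 Tg mice, in which a transgenic TCR makes CD4 T cells respond to an OVA peptide. Naïve (CD44low) CD4 T cells were sorted from spleen and sequenced without culture. The effector cells had been stimulated for 6 days with OVA peptide on irradiated splenocytes that were depleted of T cells. The Th1 medium contained 100 U/ml IL-12 and 30 U/ml IL-2, and IL-4 was blocked with 1 μg/ml of Ab. The Th17 medium contained IL-1β, IL-6 and IL-23 at 10 ng/ml each, IFNγ and IL-4 were blocked with 10 μg/ml of Ab each, and neither TGF-β nor added IL-2 is listed. The Th2 medium contained 100 U/ml IL-4 and 30 U/ml IL-2, and IFNγ was blocked with 10 μg/ml of Ab. Thus the 2 media differed in several agents at once, and the share of any one of them in a difference cannot be told apart. Neither the labels nor the methods say whether the replicates came from separate mice or cultures, so the p-values measure the spread between these libraries, which may be technical.

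Th1 cells carry the transcription factor T-bet, encoded by *Tbx21*, and secrete IFNγ, which acts on many cells and induces guanylate-binding proteins, immunity-related GTPases and antigen-processing genes. Th17 cells secrete IL-17A, IL-17F and IL-22, which act on epithelial and stromal cells. IL-12 signals through STAT4, whereas IL-6 and IL-23 signal through STAT3.

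The genes that mark the 2 subsets followed the labels. *Tbx21* had an FPKM of 45.1 and 50.7 in the Th1 libraries and 1.62 and 1.66 in the Th17 libraries (difference -4.21, SE 0.13, adjusted p = 3.74e-06, limma). *Ifng* stood at 801.9 and 614.4 in Th1 and at 0.433 and 2.19 in Th17 (-8.36, SE 0.35, adjusted p = 1.17e-05, limma). *Il17a* was at 0.235 and 0 in Th1 and at 347.2 and 335.3 in Th17 (8.27, SE 0.14, adjusted p = 9.92e-07, limma). For all 3 the libraries of the subsets were far apart, and the Th2 libraries lay at 1.07 or less. *Cd4* and *Cd3e*, which define the cells that were cultured, differed by -0.09 and -0.24 with adjusted p-values of 0.622 and 0.187 (limma). Of the 7 CD4 T cell markers tested, 3 were lower in Th17 and 1 higher (median -0.43), beside 9.8% and 16.7% of all genes tested. The lower ones were *Cd3d* (-0.77, adjusted p = 0.00938, limma), *Cd3g* (-0.56, adjusted p = 0.0174, limma) and *Zap70* (-0.57, adjusted p = 0.017, limma). The higher one was *Cd2* (0.43, adjusted p = 0.0187, limma), and all were named after their values were seen. Without any 1 of the 4 libraries 0 were higher, and without Th1 replicate 2 or Th17 replicate 1 0 were lower.

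Of 23284 genes listed, 11070 averaged 1 FPKM or more in the 4 libraries and were tested. An adjusted p-value under 0.05 was reached by 1852 genes that were higher in Th17 cells (16.7% of those tested) and by 1085 that were lower (9.8%). The median difference over all genes tested was 0.08. The higher genes made up 63.1% of the calls, against 52.7% after median scaling and 50.5% after quantile normalization, so the split of small differences depends on the scaling. A difference of at least 1 was reached by 519 of the higher genes (4.69% of those tested) and 390 of the lower genes (3.52%). Without Th1 replicate 1, Th1 replicate 2 or Th17 replicate 2 the higher genes numbered 1078, 1107 or 1040, and without Th1 replicate 2 or Th17 replicate 1 the lower genes numbered 621 or 628. The libraries held an implied 16715742 to 21058286 fragments, and Pearson's r across genes was 0.957 between the Th1 libraries, 0.95 between the Th17 libraries and 0.885 to 0.907 across subsets, which describes the libraries only.

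**Figure D1:**
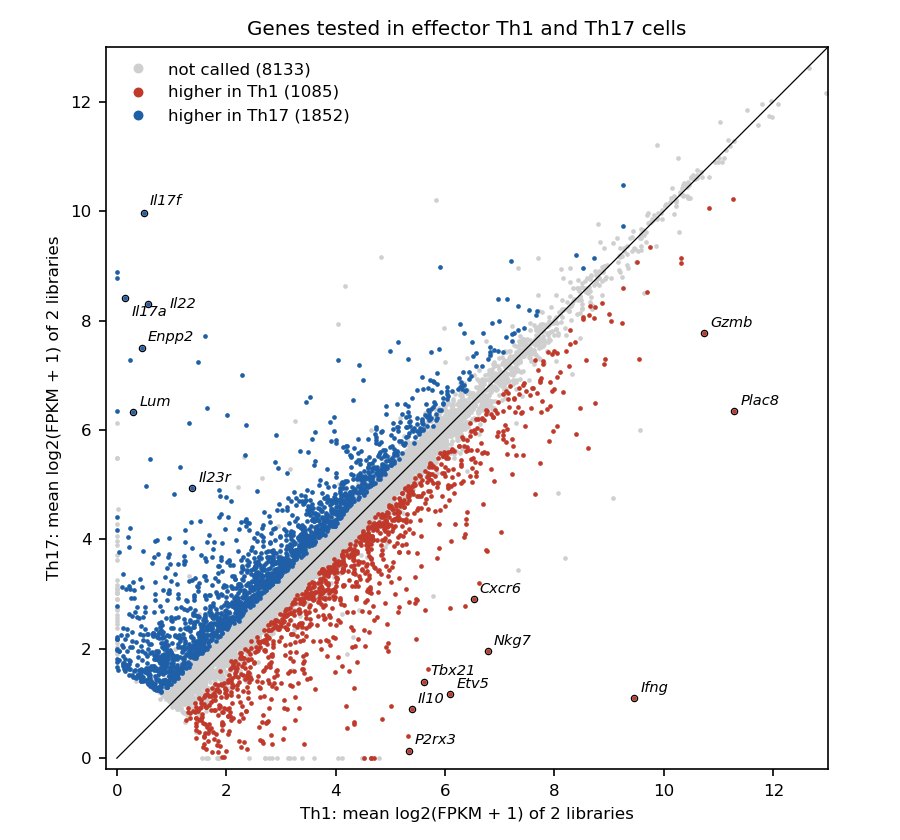
Each point is one of the 11070 genes tested, by its mean log2(FPKM + 1) in the 2 Th1 libraries (x axis) and the 2 Th17 libraries (y axis), colored where the adjusted p-value was under 0.05 (limma). *Il17f*, *Il17a* and *Il22* lie farthest above the line of equal expression and *Ifng* farthest below it among the circled genes.

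Most large differences were gains over naïve cells. For 378 of the 519 genes at least 1 higher in Th17, both Th17 libraries exceeded both naïve libraries while Th1 did not fall below them. For 54 Th1 lay below the naïve libraries without such a rise in Th17, and for 84 both held. Among the 390 genes higher in Th1, 224 had both Th1 libraries above naïve while Th17 did not fall below it. For 118 Th17 lay below naïve without such a rise in Th1, and for 48 both held. A gene may also have moved the same way in both subsets, as *Gzmb* rose over naïve (0.252 and 0.941) in Th17 too (190.7 and 247.8). These counts describe the position of the libraries and were not tested.

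The 10 largest differences in each direction show how wide the separation was. Highest in Th17 was *Il17f*, at 0.835 and 0.0702 in Th1 and 978.9 and 1012.6 in Th17 (9.47, SE 0.31, adjusted p = 4.04e-06, limma). *Il22* was at 0.497 and 0.484 in Th1 and at 237.9 and 419.9 in Th17 (7.73, adjusted p = 3.97e-06, limma). *Iltifb*, a near copy of *Il22*, stood at 123.3 and 194.4 in Th17 (7.04), but 41.0% of the 50-base words of the *Il22* transcripts also occur in *Iltifb*, so reads may be split between them. All 3 were nearly silent in Th1.

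Other protein-coding genes of that group do not encode T cell cytokines. *Enpp2* encodes autotaxin, which makes lysophosphatidic acid, and rose from 0.449 and 0.291 in Th1 to 171.1 and 190.4 in Th17 (7.05, adjusted p = 2.73e-06, limma). *Lum*, which encodes the matrix proteoglycan lumican, was at 0.348 and 0.128 against 81.5 and 76.2 (6.02, adjusted p = 1.39e-06, limma). Outside the 10 largest, and picked after their values were seen, the metalloprotease inhibitor *Timp1* (3.81 and 3.95 against 125.2 and 129.6, difference 4.72), *Crispld2* (1.53 and 1.48 against 61.0 and 77.3, 4.80) and the proteoglycan decorin, *Dcn* (0.0204 and 0.0215 against 12.7 and 12.5, 3.74), had the same direction.

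Because matrix genes are typical of stromal cells, fibroblast markers were read beside them. *Col3a1* and *Pdgfra* were at 0 in both Th1 libraries and at no more than 0.00976 in Th17, and *Col1a1* and *Col1a2* were under 1 FPKM in all 4, *Col1a1* at 0.0651 and 0.0685 in Th1 and 0.179 and 0.341 in Th17. *Fn1*, which encodes fibronectin, was at 0.0681 and 0.0633 against 1.32 and 1.45. Of the 6 fibroblast markers that passed the filter, 2 were higher in Th17, *Dcn* and *Lum* themselves, against 4 of 13 without a filter, while 2 were lower, *Fbln1* and *Thy1* (both named after their values were seen), and without any 1 of the 4 libraries 1 was lower. Over all genes tested 16.7% were higher in Th17 and 9.8% lower. *Lum* and *Dcn* passed the filter only through Th17, and as *Lum* and *Dcn* also prompted the list, its counts are no independent evidence. Summed over the 11 listed fibroblast markers other than *Vim* and *Thy1*, the level was 4.43 and 11.5 in Th1 and 97.5 and 98.4 in Th17, the latter being nearly all *Lum* and *Dcn*.

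Lowest in Th17 after *Ifng* was *P2rx3*, an ATP-gated ion channel, at 33.1 and 46.7 in Th1 and 0.109 and 0.0935 in Th17 (-5.20, adjusted p = 3.74e-06, limma). *Plac8* was among the most abundant transcripts of Th1 cells, at 2402.1 and 2604.3, and fell to 74.4 and 87.2 in Th17 (-4.94, adjusted p = 2.61e-06, limma). *Etv5*, an ETS transcription factor, was at 59.4 and 75.6 against 1.23 and 1.28 (-4.91, adjusted p = 2.65e-06, limma). The naïve libraries held 2.76 FPKM or less of each of these genes, so all 3 were scarce before culture. *Ffar2*, a receptor for short-chain fatty acids, was at 34.9 and 43.7 against 0.361 and 0.299 (-4.91, adjusted p = 5.17e-06, limma), with 14.6 and 10.6 in Th2. *Nkg7*, a protein of cytotoxic granules, was at 96.6 and 122.8 against 2.80 and 2.99 (-4.82, adjusted p = 3.55e-06, limma).

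The other 7 of the 20 largest differences, *Snord49b*, *Snord95* and *Mir29c* on the Th17 side and *Snord7*, *Mir18*, *Mir339* and *Mir330* on the Th1 side, are small RNA genes that rest on at most 4 implied fragments in any of the 4 libraries. With voom on the implied fragments none of the 7 passed, with adjusted p-values of 0.0833 to 0.372 (limma). Their FPKM is large only because the features are short.

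The list of 14 Th1 lineage genes had 13 members tested, of which 9 were lower in Th17, 1 was higher and 3 did not pass. Their median was -0.83, and over all genes tested 9.8% were lower and 16.7% higher. Both chains of the IL-18 receptor were among those that fell. *Il18r1* was at 121.8 and 137.4 in Th1 and 16.4 and 16.6 in Th17 (-2.90, adjusted p = 6.87e-06, limma), and *Il18rap* at 24.0 and 36.4 against 3.73 and 5.33 (-2.48, adjusted p = 0.000232, limma). The Th17 libraries were nonetheless above the Th2 libraries for both genes, which held 0.935 FPKM or less. *Cxcr3*, a chemokine receptor usually tied to Th1 cells, was at 8.01 and 9.35 in Th1 and 11.3 and 11.5 in Th17 (0.36, adjusted p = 0.322, limma), and *Runx3* did not pass either (-0.32). The 1 member higher in Th17, *Hlx* (0.33), lost its call under 9 of the 15 alternatives and was named after its values were seen.

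Of the 16 Th17 lineage genes, 14 were tested, 11 were higher in Th17 and 1 was lower (median 2.63), beside 16.7% and 9.8% of all genes tested. *Rora*, which encodes the nuclear receptor RORα, was at 4.40 and 6.17 against 9.56 and 13.6 and missed the threshold (1.00, adjusted p = 0.0532, limma). *Ccr6*, the receptor for CCL20, was at 0.160 and 0.192 against 6.71 and 8.54 (2.87, adjusted p = 8.86e-05, limma). The exception was *Maf*, which encodes c-Maf, at 27.5 and 20.5 in Th1 and 8.61 and 6.54 in Th17 (-1.54, SE 0.17, adjusted p = 0.000661, limma). *Maf* was highest in Th2 cells, at 95.5 and 104.1. *Hif1a* showed no such separation (0.02, adjusted p = 0.941, limma), and *Ahr* and *Ccl20* were under 1 FPKM in all 4 libraries.

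**Figure D2:**
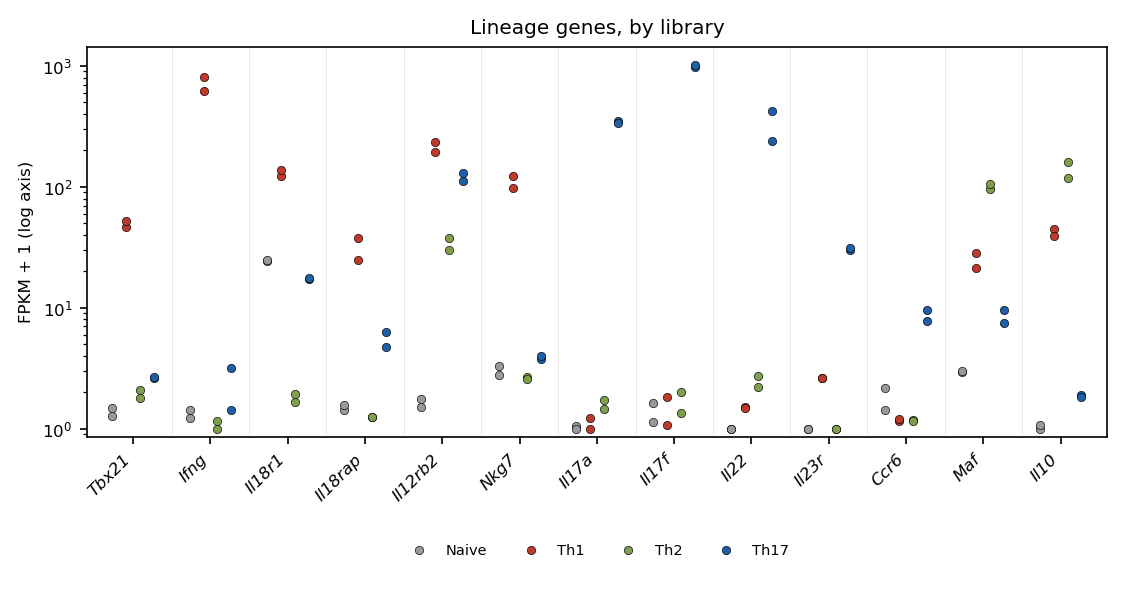
FPKM + 1 on a log axis for 13 lineage genes, 1 point per library, for naïve, Th1, Th2 and Th17 cells. The Th1 and Th17 libraries of each gene do not overlap, as in 63.3% of all genes tested. *Il17a*, *Il17f* and *Il22* are raised in Th17 alone, and *Maf* and *Il10* lie below Th1 in the Th17 libraries.

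The promoters of 3 Th17 genes are shown because each holds AGGTCA, a half-site that many nuclear receptors recognise, RORα among them. Sequences are the 250 bases before the RefSeq start site (GRCm38.p6), 5′ to 3′ on the strand of the gene, with AGGTCA or its complement TGACCT in capitals. *Il17a* lies on the plus strand at chr1:20730655-20730904, *Il17f* on the minus strand at chr1:20784271-20784520 and *Il23r* on the minus strand at chr6:67491856-67492105.
Il17a: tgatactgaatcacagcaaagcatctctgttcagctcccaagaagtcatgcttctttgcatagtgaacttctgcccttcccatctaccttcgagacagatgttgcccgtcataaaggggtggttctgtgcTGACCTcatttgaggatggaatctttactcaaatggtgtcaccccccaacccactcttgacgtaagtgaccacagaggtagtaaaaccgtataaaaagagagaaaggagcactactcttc
Il17f: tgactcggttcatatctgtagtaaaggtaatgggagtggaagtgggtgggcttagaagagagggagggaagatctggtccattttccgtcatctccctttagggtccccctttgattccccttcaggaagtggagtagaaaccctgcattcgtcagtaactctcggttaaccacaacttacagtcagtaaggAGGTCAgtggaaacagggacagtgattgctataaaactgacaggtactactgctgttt
Il23r: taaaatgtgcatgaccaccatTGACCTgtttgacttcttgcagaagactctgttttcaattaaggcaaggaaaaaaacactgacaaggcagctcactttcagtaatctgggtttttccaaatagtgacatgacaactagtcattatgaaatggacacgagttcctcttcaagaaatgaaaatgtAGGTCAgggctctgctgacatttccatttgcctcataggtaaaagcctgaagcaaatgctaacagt

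The half-site begins 120 bases before the start of *Il17a*, 58 before that of *Il17f*, and 229 and 66 before that of *Il23r*. It is a common word, present on either strand in 14% of 32851 promoter windows of this length. It occurs in 4 of the 10 Th17 lineage genes that were higher in Th17 and have an entry, in 15.9% of the 365 genes at least 1 higher in Th17 and in 16.4% of the 281 at least 1 lower. A match is a description of the letters and not a binding site.

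Receptors for the cytokines that were added or blocked differed more than the list's median of 0.32 shows. Of 14 chains 7 were higher in Th17, 3 lower and 4 did not pass, beside 16.7% higher and 9.8% lower of all genes tested. For the IFNγ and the IL-6 receptor the 2 chains were called in opposite directions. *Ifngr1*, the chain that binds IFNγ, was at 239.5 and 238.3 in Th1 and 53.3 and 55.5 in Th17 (-2.12, SE 0.14, adjusted p = 6.3e-05, limma). *Ifngr2*, the chain needed for the signal, was at 1.55 and 1.19 in Th1 and 16.2 and 17.8 in Th17 (2.93, SE 0.11, adjusted p = 6.87e-06, limma). Th1 cells thus had the most *Ifngr1* and the least *Ifngr2* of the 4 groups, as the naïve libraries held 68.2 and 57.1 of the first and 41.2 and 37.8 of the second. The 2 Th2 libraries, at 15.4 and 16.0 of *Ifngr2*, were close to Th17.

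In the IL-6 receptor it was the binding chain that was higher in Th17 and the signalling chain that was lower. *Il6ra*, the chain that binds IL-6, was at 4.12 and 4.16 in Th1 and 17.6 and 22.1 in Th17 (2.01, SE 0.17, adjusted p = 0.000228, limma). *Il6st*, which encodes the shared signalling chain gp130, was at 13.5 and 19.6 in Th1 and 1.82 and 2.69 in Th17 (-2.42, SE 0.23, adjusted p = 0.000362, limma). Naïve cells had more of both chains than either subset, at 52.3 and 73.4 for *Il6ra* and 31.1 and 42.9 for *Il6st*.

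The chain particular to the IL-23 receptor, *Il23r*, was at 1.61 and 1.6 in Th1 and 28.9 and 30.3 in Th17, and at 0 in all naïve and Th2 libraries (3.55, SE 0.09, adjusted p = 2.61e-06, limma). *Il12rb1*, which IL-12 and IL-23 receptors share, was at 62.1 and 80.8 against 38.5 and 49.5 and did not pass (-0.69, adjusted p = 0.0831, limma). *Il12rb2*, the chain particular to the IL-12 receptor, was at 192.9 and 232.8 in Th1 but still at 110.3 and 128.6 in Th17, well over the 37.0 or less of Th2 (-0.83, SE 0.16, adjusted p = 0.01, limma). Without Th1 replicate 2 or Th17 replicate 1 it missed the threshold, with adjusted p-values of 0.0694 and 0.0692 (limma).

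Both IL-1-binding receptors were higher in Th17. The signalling chain *Il1r1* was at 0.960 and 0.867 against 11.2 and 12.3 (2.74, adjusted p = 5.77e-06, limma). *Il1r2*, a decoy that binds IL-1 without signalling, was more abundant, at 18.3 and 22.9 against 125.5 and 168.7 (2.77, adjusted p = 5.35e-05, limma). The accessory chain *Il1rap* was at 0.886 and 1.00 against 1.17 and 1.20, a difference that did not pass (0.17, adjusted p = 0.391, limma).

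IL-2 receptor chains were abundant in both subsets. *Il2ra* (CD25) was at 611.5 and 604.1 in Th1 and 865.2 and 821.4 in Th17 (0.47, SE 0.14, adjusted p = 0.0471, limma), a call that was lost without any 1 of the 4 libraries, at adjusted p-values of 0.155, 0.165, 0.173 and 0.129. *Il2rb* and *Il2rg* differed by -0.10 and 0.11 (adjusted p = 0.825 and 0.621, limma). *Il4ra* was at 88.0 and 99.4 against 160.9 and 178.6 (0.85, adjusted p = 0.00281, limma).

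**Figure D3:**
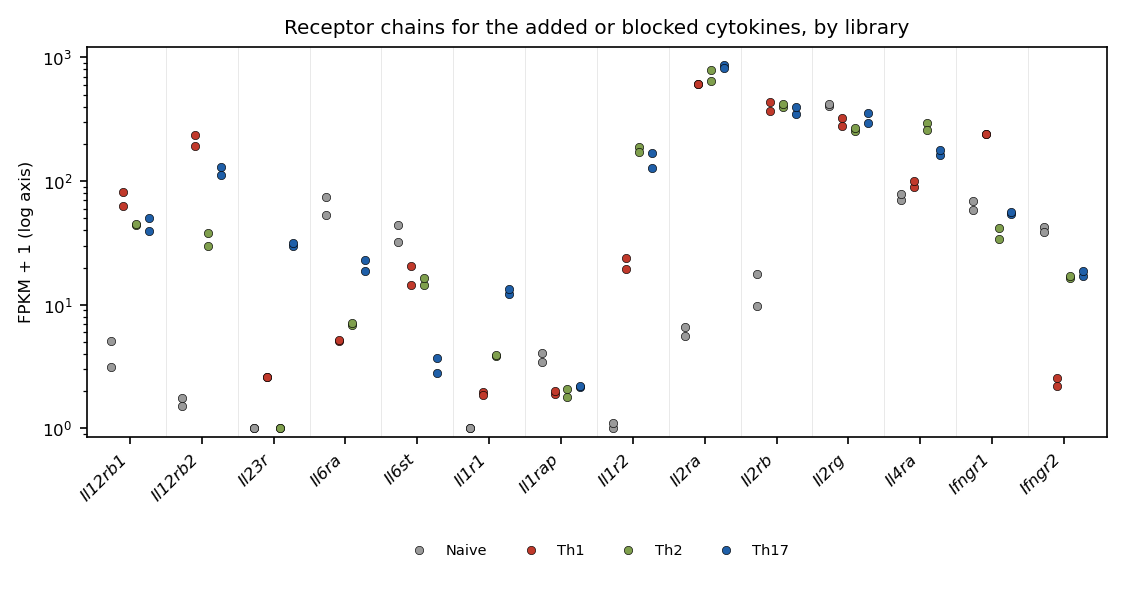
FPKM + 1 on a log axis for the 14 chains of the receptors for the cytokines added to or blocked in the cultures, 1 point per library of naïve, Th1, Th2 and Th17 cells. *Ifngr1* and *Il6st* are higher in the Th1 libraries, whereas *Ifngr2*, *Il6ra*, *Il23r*, *Il1r1* and *Il1r2* are higher in the Th17 libraries.

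Among JAK, STAT and SOCS genes, which carry and restrain these signals, 4 of 19 were higher in Th17 and 3 lower (median 0.24), not far from the 16.7% and 9.8% of all genes tested. *Jak2* was at 20.6 and 21.2 against 44.6 and 51.5 (1.16, adjusted p = 0.00115, limma), and *Stat5a* at 24.2 and 30.9 against 56.7 and 65.8 (1.13, adjusted p = 0.00277, limma). *Stat3* was at 45.6 and 52.7 against 79.5 and 96.5 (0.82, adjusted p = 0.0165, limma) and *Stat4* at 40.1 and 50 against 25.1 and 28.4 (-0.72, adjusted p = 0.00688, limma). The higher genes numbered 2 without Th1 replicate 1, Th1 replicate 2 or Th17 replicate 2, and the lower genes 0 or 1 without any single library. *Stat3* missed the threshold without Th1 replicate 1, Th1 replicate 2 or Th17 replicate 2 (adjusted p = 0.0996, 0.0506 and 0.104, limma), and *Stat4* without Th17 replicate 1 (0.0508). The exons of *Stat3* and *Stat5a* overlap on opposite strands, and the kit named in the methods keeps no strand.

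Of 24 secreted cytokines, 19 were tested, 8 were higher in Th17 and 5 lower (median 0.25), beside 16.7% and 9.8% of all genes tested. *Il10*, an inhibitory cytokine, was at 43.7 and 38.1 in Th1, 0.901 and 0.827 in Th17 and 159.8 and 116.2 in Th2 (-4.49, SE 0.16, adjusted p = 5.77e-06, limma). Hence the Th17 libraries held little of a transcript that both other effector subsets had. *Csf2* (GM-CSF) was low in both subsets, at 3.65 and 3.18 against 4.08 and 4.99 (0.32, adjusted p = 0.199, limma), and *Il2* was under 1 FPKM in all 4.

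*Il13* and *Il4*, cytokines of Th2 cells, were higher in Th17 than in Th1, both at low levels. *Il13* was at 0.0974 and 0.0682 in Th1 and 7.09 and 12.0 in Th17 (3.24, adjusted p = 5.73e-05, limma), and *Il4* at 1.14 and 1.20 against 5.0 and 5.0 (1.47, adjusted p = 0.000304, limma). The Th2 libraries held over 97 FPKM of each, and *Gata3*, the Th2 regulator, was at 5.46 and 7.95 against 5.83 and 9.19 (0.13, adjusted p = 0.713, limma). *Ccr8* was at 0.991 and 1.94 against 4.27 and 7.18 (1.44, adjusted p = 0.0137, limma), a call lost without Th1 replicate 1 or Th17 replicate 2 (0.0867 and 0.0876). *Foxp3*, the regulatory T cell factor, was at 0.874 and 1.13 in Th1, 3.03 and 5.76 in Th17 and 6.68 and 12.8 in naïve cells (1.39, adjusted p = 0.0187, limma). That call was lost without Th1 replicate 1, Th1 replicate 2 or Th17 replicate 2 (0.1, 0.0703 and 0.107). In all, 5 of the 9 Th2, regulatory and follicular genes tested were higher in Th17 and 1 was lower (median 1.01). Over all genes tested the shares were 16.7% and 9.8%. The number higher was 3 without Th1 replicate 1 or Th17 replicate 2. With a filter at a mean FPKM of 5, 1 of these genes was tested and 0 were called.

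Interferon-stimulated genes were mostly higher in Th1. Of 51 such genes, the longest list, 42 were tested, 26 were lower in Th17 and 0 higher (limma), with a median of -0.88. Over all genes tested the shares were 9.8% lower and 16.7% higher. At an unadjusted p-value under 0.05 there were 33 lower and 0 higher, and with voom 23 lower and 0 higher. The number lower was 15, 17 and 16 without Th1 replicate 2, Th17 replicate 1 and Th17 replicate 2, and over all alternatives it was 15 to 32, with 0 higher in each. *Iigp1*, an immunity-related GTPase, was at 17.3 and 21.2 in Th1 and 0.459 and 0.636 in Th17 (-3.71, SE 0.31, adjusted p = 0.000207, limma). *Irf8*, an interferon regulatory factor, was at 100.7 and 112.0 against 13 and 12.9 (-2.94, SE 0.15, adjusted p = 2.59e-05, limma). *Igtp*, another GTPase of the family, was at 413.8 and 439.1 against 84.2 and 93.3 (-2.25, SE 0.17, adjusted p = 0.00012, limma), with some exonic bases in common with *Irgm2* on the same strand.

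*Tgtp1* was at 82.6 and 79.6 against 16.1 and 16.0 (-2.27, adjusted p = 2.54e-05, limma), but 79.4% of its 50-base words also occur in *Tgtp2*, so the pair cannot be read apart. *Irf1*, an interferon regulatory factor that was named after its values were seen, was at 75.9 and 88.8 against 18.9 and 20.7 (-2.0, adjusted p = 3.87e-05, limma). The naïve libraries were not low for this list. Both Th1 libraries lay above both naïve libraries for 8 of the 26 genes and below them for 18, and the Th17 libraries lay below both naïve libraries for 22. *Iigp1*, for example, was at 28.7 and 59.8 in naïve cells and *Irf1* at 208.5 and 232.6.

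In all 26 the Th1 and Th17 libraries did not overlap, as in 63.3% of all genes tested. All 26 also had both Th2 libraries below both Th1 libraries, and for 19 of them the Th2 libraries were below the Th17 libraries as well. Several genes mostly tied to type I interferon were hardly present in either subset, as *Ifit1*, *Ifit3*, *Oas2* and *Rsad2* were under 1 FPKM in all 4 libraries. Others of that kind, such as *Isg15*, *Mx1* and *Usp18*, were abundant enough to be tested. Among the 16 that did not pass, *Ly6a*, *Bst2* and *Gbp8* lay between -0.10 and 0.02.

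**Figure D4:**
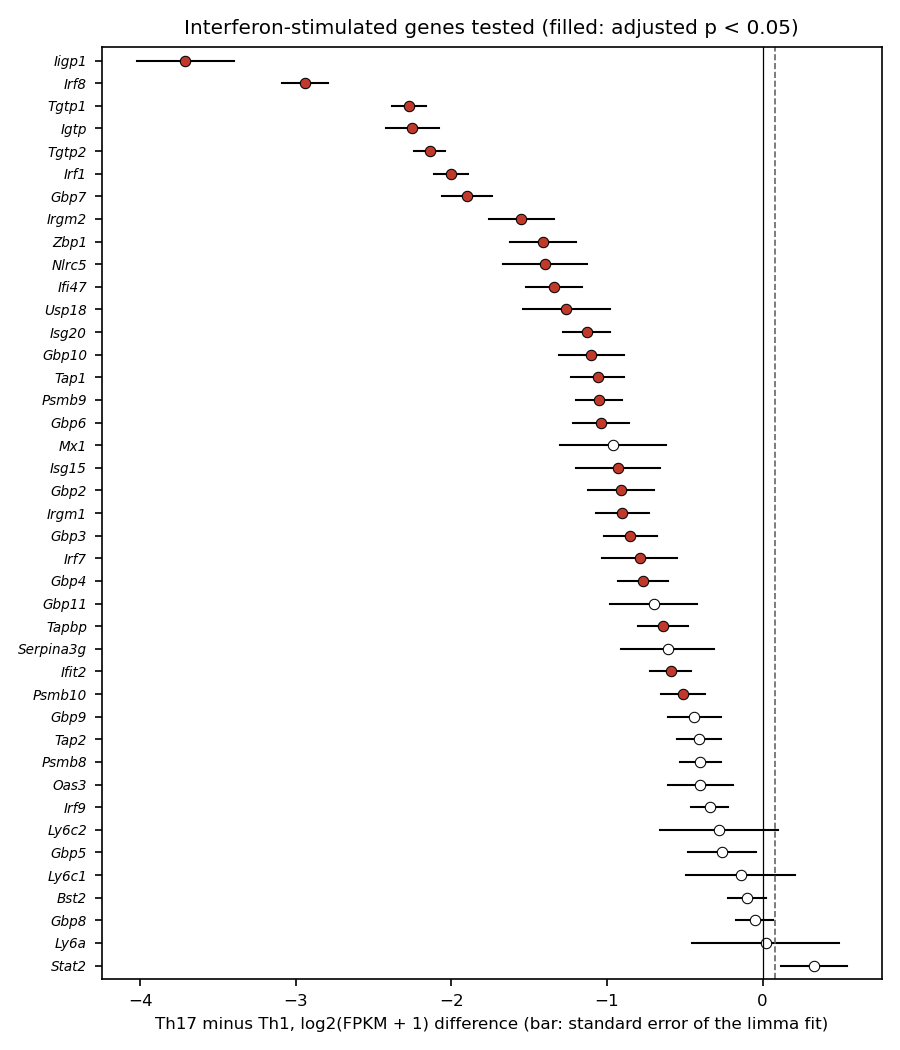
Th17 minus Th1 difference on the log2(FPKM + 1) scale for the interferon-stimulated genes tested other than those not reported here, with the SE of the limma fit as bars and the median of all genes tested (0.08) as a dashed line. The 26 filled points passed an adjusted p-value of 0.05 and all lie below 0, from -3.71 for *Iigp1* to -0.51 for *Psmb10*.

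The promoters of 3 of these genes are printed because they hold the words that interferon-activated factors recognise. TTCNNNGAA is the GAS word (interferon-gamma activated site), and GAAA followed by any 2 bases and GAAA is the core of the ISRE, and matches on either strand are in capitals. *Irf8* lies on the plus strand at chr8:120736108-120736357, *Igtp* on the plus strand at chr11:58199306-58199555 and *Tgtp1* on the minus strand at chr11:48992247-48992496, each window again being the 250 bases before the RefSeq start (GRCm38.p6).
Irf8: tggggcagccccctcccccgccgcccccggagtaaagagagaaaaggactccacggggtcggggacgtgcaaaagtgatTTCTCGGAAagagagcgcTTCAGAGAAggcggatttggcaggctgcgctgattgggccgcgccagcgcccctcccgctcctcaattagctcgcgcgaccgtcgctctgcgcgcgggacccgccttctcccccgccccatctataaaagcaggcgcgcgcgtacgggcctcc
Igtp: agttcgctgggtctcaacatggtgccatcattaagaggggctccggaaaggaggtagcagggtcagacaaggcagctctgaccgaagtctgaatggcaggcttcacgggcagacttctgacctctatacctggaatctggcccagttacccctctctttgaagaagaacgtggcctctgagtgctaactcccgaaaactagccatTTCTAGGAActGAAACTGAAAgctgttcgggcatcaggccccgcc
Tgtp1: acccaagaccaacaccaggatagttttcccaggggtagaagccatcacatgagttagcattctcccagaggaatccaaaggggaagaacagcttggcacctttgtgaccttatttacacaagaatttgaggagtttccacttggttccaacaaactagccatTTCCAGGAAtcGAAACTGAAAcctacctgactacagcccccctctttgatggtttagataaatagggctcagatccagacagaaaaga

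*Irf8* has the GAS word at 171 and 153 bases before its start. *Igtp* has it at 45 and the ISRE word at 34, and *Tgtp1* at 88 and 77, so that in both GTPase genes the words stand side by side in the same order. Of 32851 promoter windows, 7.02% hold the GAS word and 2.98% the ISRE word, and in 18 of the 109 with both the matches overlap. An entry exists for 19 of the 26 genes that were lower in Th17, of which 9 hold the GAS word and 9 the ISRE word. The share was alike in the list's other members, as 4 of the 9 with an entry that did not pass hold each word. Over all genes at least 1 lower in Th17 it was 12.8% for GAS and 7.83% for ISRE, and over those at least 1 higher 8.22% and 3.84%.

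Cytotoxic genes were lower in Th17 in 11 of 14 cases and higher in 0 (median -1.02, limma), beside 9.8% and 16.7% of all genes tested. At an unadjusted p-value under 0.05 the counts were the same, and with voom they were 10 and 0. *Gzmb*, which encodes granzyme B, was at 1605.5 and 1823.1 in Th1 and 190.7 and 247.8 in Th17 (-2.97, SE 0.27, adjusted p = 0.000307, limma), and *Fasl*, the ligand of the death receptor Fas, at 7.39 and 7.12 against 0.221 and 0.320 (-2.70, adjusted p = 1.48e-05, limma). *Ctla2b* was at 145.5 and 151.2 against 35.8 and 35.6 (-2.02, adjusted p = 2.88e-05, limma). *Nkg7*, *Fasl* and *Gzmb* separated Th1 from Th2 as well, though the Th2 libraries still held 532.4 and 350.8 FPKM of *Gzmb*, more than Th17. Without Th1 replicate 1, Th1 replicate 2 or Th17 replicate 1 the number lower was 7, 7 or 6.

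NK cells share these genes, so NK markers were read beside them. *Ncr1*, which defines NK cells, was at 0 in all 4 libraries. *Klrk1*, which effector T cells also carry, was 1 of 2 NK markers tested and was at 28.2 and 30.4 in Th1 and 3.03 and 3.13 in Th17 (-2.89, adjusted p = 5.77e-06, limma). The 7 other listed NK markers summed to 3.36 and 4.77 FPKM in Th1 and 5.94 and 5.27 in Th17.

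Of the chemokine receptors, 8 of 15 were higher in Th17 and 5 lower (median 0.91), beside 16.7% and 9.8% of all genes tested. The counts were 4 and 4 with a filter at a mean FPKM of 5. Th1 cells had *Cxcr6* at 89.5 and 92.4 against 5.97 and 7.14 in Th17 (-3.61, SE 0.26, adjusted p = 9.63e-05, limma). They also had the neutrophil-type receptors *Cxcr1*, at 197.8 and 201.8 against 26.5 and 28.5 (-2.82, adjusted p = 5.17e-06, limma), and *Cxcr2*, at 81.2 and 82.4 against 6.56 and 5.31 (-3.58, adjusted p = 3.84e-06, limma). Transcripts of *Cxcr1* and *Cxcr2* have no 50-base word in common. The other neutrophil genes did not go with them, since *Retnlg*, *Camp* and *S100a9* were at 0 in all 4 libraries. *Mpo*, at 4.89 and 0 in Th1 and 3.02 and 0.106 in Th17, went with the replicate number and not with the subset, and the 12 listed neutrophil markers other than *Cxcr2* summed to 9.31 and 0.566 in Th1 and 9.12 and 0.808 in Th17.

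Th17 cells had more *Ccr6*, as above, and more *Ccr7*, which guides cells to lymph nodes, at 39.8 and 37.8 in Th1 and 150.5 and 160.3 in Th17 (1.97, SE 0.09, adjusted p = 1.82e-05, limma). The naïve libraries held 326.6 and 310.4 of it, so Th17 lay between Th1 and naïve cells.

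Of 21 chemokine ligands 9 were tested, 8 were higher in Th17 and 0 lower (median 1.67, limma), beside 16.7% and 9.8% of all genes tested. The counts were the same at an unadjusted p-value under 0.05 and with voom, though most were scarce. Several, such as *Ccl3* and *Cxcl2*, were under 1 FPKM in Th1 and passed the filter only through Th17, so the filter favored this direction. Without a filter 11 of 20 were higher and 1 lower, and with a filter at a mean FPKM of 5 the number higher was 3. *Ccl22*, which attracts CCR4+ cells, was at 4.23 and 3.94 against 44.9 and 45.7 (3.19, SE 0.09, adjusted p = 3.48e-06, limma). The neutrophil attractants *Cxcl3*, at 1.09 and 0.803 against 13.5 and 11.3 (2.78, adjusted p = 9.1e-05, limma), and *Cxcl2*, at 0.407 and 0.233 against 5.12 and 4.66 (2.16, adjusted p = 5.53e-05, limma), had the same direction. *Ccl3* was at 0.889 and 0.408 against 9.22 and 7.49 (2.51, adjusted p = 6.72e-05, limma).

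Myeloid and B cells also make such ligands, and irradiated splenocytes were present in the cultures. Of the B cell markers, 4 of 8 were tested and all 4 were higher in Th17, led by *Ebf1*, also named after its values were seen, at 0.287 and 0.184 against 8.04 and 8.56 (2.91, adjusted p = 1.48e-05, limma). Their summed level was 3.77 and 2.96 in Th1 and 22.2 and 21.5 in Th17, with *Ms4a1* (CD20) at 0.351 and 0.221 against 0.301 and 0.380. All 4 MHC class II genes tested were higher in Th17, the list summing to 60.5 and 66.3 against 124.3 and 142.3. Of the myeloid markers, 3 of 6 tested were higher, or 1 without Th1 replicate 1, Th17 replicate 1 or Th17 replicate 2. The 11 listed other than *Batf3*, which the T cells carry, summed to 16.8 and 19.0 against 30.5 and 31.1, with *Siglech* at 0 in all 4. The part of these cells in the ligand differences was not tested, and in bulk RNA more cells of a type cannot be told from more RNA per cell.

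**Figure D5:**
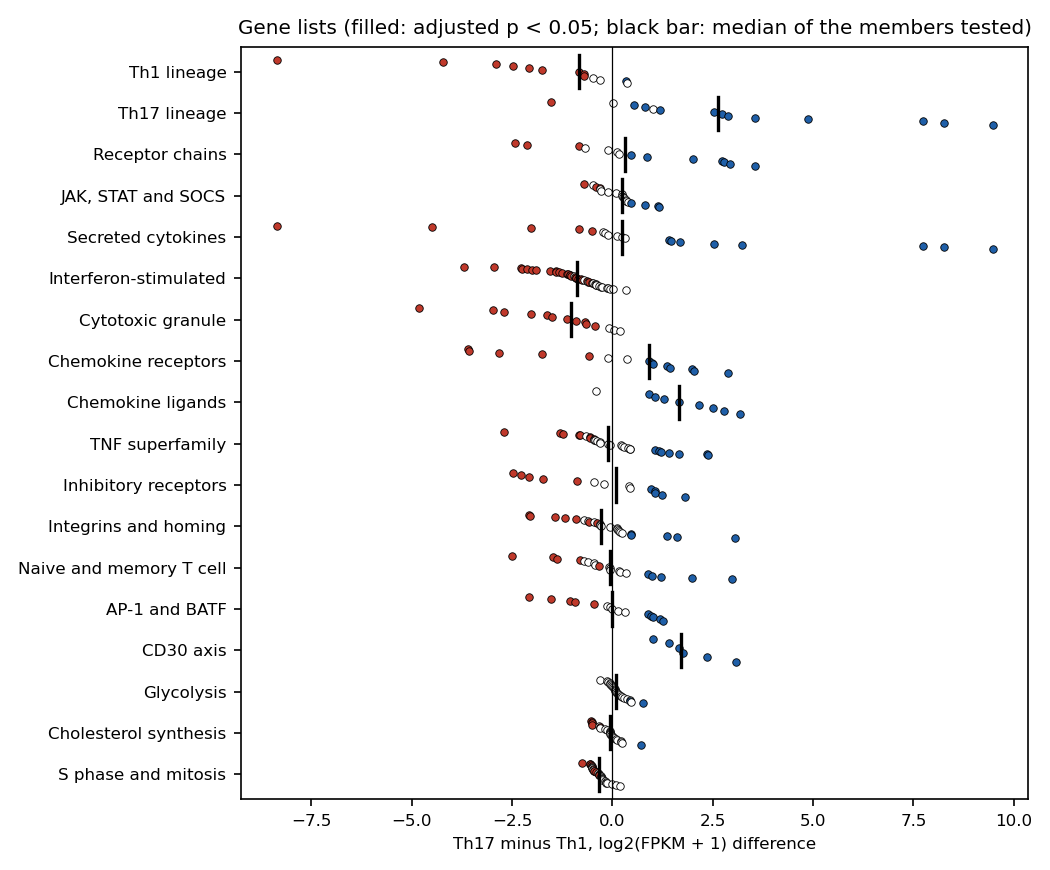
Th17 minus Th1 differences of the members tested in 18 gene lists, 1 point per gene, filled where the adjusted p-value was under 0.05 (limma) and with a black bar at the list's median. Interferon-stimulated and cytotoxic genes lie almost entirely below 0, chemokine ligands other than *Ccl5* and the CD30 axis above it, and glycolysis and cholesterol synthesis close to 0.

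CD30, encoded by *Tnfrsf8*, is a TNF receptor family member of activated T cells, and CD30L is encoded by *Tnfsf8*. Receptor, ligand and 4 more genes were taken from the text of the study as a selection from its larger set of CD30-related genes, and these 6 were higher in Th17, with a median of 1.71. As the selection was made with results known and the study chose the genes on related samples, their direction is not independent evidence. *Tnfrsf8* was at 76.5 and 76.8 against 226.7 and 265.1 (1.66, SE 0.12, adjusted p = 8.58e-05, limma), and *Tnfsf8* at 11.7 and 10.9 against 64.8 and 58.5 (2.35, SE 0.15, adjusted p = 5.88e-05, limma). The libraries of the subsets did not overlap for either gene, as in 63.3% of all genes tested.

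The other 4 were of unequal size. *Tgm2*, which encodes transglutaminase 2, was at 57.5 and 59.8 against 426.2 and 599.1 (3.09, adjusted p = 2.93e-05, limma). *Msc*, a basic helix-loop-helix repressor, was at 4.45 and 4.18 against 15.3 and 18.7 (1.76, adjusted p = 0.00025, limma), and *Serpinf1* at 79.5 and 80.9 against 200.2 and 234.1 (1.42, adjusted p = 0.000175, limma). *Batf3* was at 137.9 and 114.0 against 268.5 and 240.8 (1.01, adjusted p = 0.00407, limma). Th2 cells were close to Th17 for *Tgm2* (432.4 and 430.7), but below Th1 for *Batf3* (69.3 and 51.7) and *Msc* (1.34 and 0.790).

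In the wider TNF superfamily 7 of 29 genes tested were higher in Th17 and 8 lower (median -0.11), beside 16.7% and 9.8% of all genes tested. *Tnfsf14*, which encodes LIGHT, was at 1.32 and 1.37 against 10.3 and 12.1 (2.38, adjusted p = 2.83e-05, limma). The number lower was 5 without Th1 replicate 1, Th17 replicate 1 or Th17 replicate 2.

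Among inhibitory receptors, 5 of 14 were higher in Th17 and 5 lower (median 0.10), beside 16.7% and 9.8% of all genes tested. *Entpd1*, which encodes the ectonucleotidase CD39, was at 31.6 and 37.6 against 5.99 and 4.75 (-2.48, adjusted p = 6.3e-05, limma), *Klrd1* at 22.3 and 15.6 against 2.95 and 3.19 (-2.27, adjusted p = 0.00275, limma) and *Havcr2*, the checkpoint receptor TIM-3, at 3.20 and 4.56 against 0.111 and 0.181 (-2.08, adjusted p = 0.0001, limma). *Cd200* went the other way, at 11.8 and 10.9 against 44.8 and 39.7 (1.81, adjusted p = 0.000124, limma). *Ctla4*, *Pdcd1* and *Lag3* lay between -0.46 and 0.43 and did not pass. Without Th1 replicate 1 or Th17 replicate 2 the number higher was 3.

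Integrins and homing molecules gave 5 of 25 higher in Th17 and 7 lower (median -0.28), beside 16.7% and 9.8% of all genes tested, and 2 and 4 with a filter at a mean FPKM of 5. *Itga3* was at 10.4 and 10.8 against 85.7 and 106.8 (3.06, adjusted p = 8.6e-06, limma) and *Itgae*, which encodes CD103 of tissue-resident T cells, at 0.728 and 0.709 against 3.57 and 5.01 (1.61, adjusted p = 0.000388, limma). *Itga4*, a chain of VLA-4, was at 5.88 and 5.31 against 0.575 and 0.553 (-2.07, adjusted p = 1.54e-05, limma), and *Gcnt1*, an enzyme that makes selectin ligands, at 26.6 and 31.2 against 5.26 and 7.21 (-2.05, adjusted p = 0.00015, limma). *Cd44* differed by 0.12 and did not pass (adjusted p = 0.488, limma). Without Th1 replicate 1, Th17 replicate 1 or Th17 replicate 2 the number higher was 3.

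Of 20 naïve and memory genes tested, 5 were higher and 5 lower in Th17 (median -0.07), beside 16.7% and 9.8% of all genes tested. *Tcf7*, which encodes TCF1, a factor of naïve and stem-like T cells, was at 5.79 and 7.33 in Th1 and 51.1 and 67.3 in Th17 (2.99, SE 0.25, adjusted p = 0.000205, limma), against 735.1 and 741.0 in naïve cells. *Prdm1*, which encodes the repressor Blimp-1, was at 19.8 and 25.2 against 3.17 and 3.12 (-2.49, SE 0.14, adjusted p = 3.21e-05, limma). *Klf3* was at 5.96 and 6.61 against 1.31 and 1.94 (-1.48, adjusted p = 0.00332, limma), *Lef1*, a partner of TCF1, at 34.2 and 54.5 against 31.7 and 52.1 (-0.09, adjusted p = 0.902, limma). Genes of naïve cells did not move as 1 group. Without Th1 replicate 2 or Th17 replicate 1 the number lower was 3.

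The AP-1 and BATF factors gave 5 higher and 5 lower of 15 tested, beside 16.7% and 9.8% of all genes tested. *Jun* was at 29.7 and 36.5 against 6.09 and 8.0 (-2.09, adjusted p = 0.00013, limma), while *Junb* was at 136.7 and 142.0 against 298.3 and 376.5 (1.26, adjusted p = 0.00139, limma) and *Batf* at 39.9 and 42.4 against 89.8 and 99.0 (1.18, adjusted p = 0.000207, limma). *Jun* and *Junb* each overlap another gene on the opposite strand.

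Genes known to be higher in Th17 cells made with IL-23 than in those made with TGF-β were not simply higher here than in Th1. Of 15 tested, 4 were higher in Th17 and 7 lower (median -0.46), beside 16.7% and 9.8% of all genes tested. That list holds *Tbx21* and *Gzmb*, which were lower, together with *Il22* and *Cxcl3*, which were higher. The number lower was 4 without Th17 replicate 1. Of the 5 tested genes of the TGF-β type, 3 were lower and 1 higher, beside the same shares of all genes tested. *Il10*, *Il6st* and *Maf* were lower. *Il1rn*, the IL-1 receptor antagonist, was higher, at 0.902 and 0.666 against 2.61 and 1.92 (0.87, adjusted p = 0.00416, limma), and passed the filter only through Th17. With a filter at a mean FPKM of 5, 3 genes of this list were tested, with 0 higher and 3 lower.

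Differences in metabolic genes were small in size. Of 24 glycolysis genes tested, 2 were higher in Th17 and 0 lower (median 0.09, limma), beside 16.7% and 9.8% of all genes tested. At an unadjusted p-value under 0.05 the counts were 4 and 0, and with voom 3 and 0. The 2 were *Ldhb*, at 5.33 and 4.85 against 9.40 and 9.30 (0.77, adjusted p = 0.000988, limma), and *Eno2* (0.45), which missed the threshold without any 1 of the 4 libraries. In cholesterol synthesis 1 of 23 was higher and 5 were lower (median -0.05), beside the same shares of all genes, none of them by more than 0.71 in size. *Hmgcs1*, an early enzyme of the pathway, was at 98.7 and 84.0 against 64.8 and 60.6 (-0.53, adjusted p = 0.0107, limma) and missed the threshold without Th1 replicate 1 or Th17 replicate 2. The 5 lower genes became 3, 2, 2 and 3 without Th1 replicate 1, Th1 replicate 2, Th17 replicate 1 and Th17 replicate 2.

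Cell cycle genes were lower in Th17 in 11 of 30 cases and higher in 0 (median -0.34, limma), beside 9.8% and 16.7% of all genes tested. At an unadjusted p-value under 0.05 the counts were 18 and 0, and with voom 11 and 0. *Pcna* was at 333.4 and 328.5 against 183.4 and 205.8 (-0.77, adjusted p = 0.00362, limma) and *Ccna2* at 71.7 and 70.2 against 46.9 and 49.5 (-0.55, adjusted p = 0.00408, limma). The number lower was 2, 2 and 7 without Th1 replicate 2, Th17 replicate 1 and Th17 replicate 2, and 17 after median scaling or quantile normalization, so the extent of this difference depends on single libraries and on the scaling.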

How the data were processed

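RNA of 8 libraries was sequenced as 50-base reads. The authors aligned them to mm10 and deposited 1 FPKM value per feature, with Bowtie 0.12.8, TopHat 1.3.2 and Cufflinks 2.0.2 named in the submitters' processing notes. The annotation is not given in the sources used here. The methods name a kit that keeps no strand and the labels a stranded one, so antisense partners cannot be told apart; 29 of 96 named genes share exonic bases with another annotated gene.

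Each file held 23746 rows, and FPKM was summed over rows with the same gene name (240 genes had more than 1). Genes averaging 1 FPKM or more in the 4 libraries were kept. log2(FPKM + 1) was fitted with limma 3.58.1 in R 4.3.3 with a mean-variance trend. All 8 libraries entered, sharing 1 estimate of the spread, and p-values were adjusted over all genes tested by the Benjamini-Hochberg method at 0.05. The fit was tested on simulated data. FPKM are no counts, so fragments were implied from the width of the listed confidence interval of each value, and served only for depth and voom.

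Named genes were the 10 largest called differences in each direction, up to 4 called members of each list with the largest differences, *Tbx21*, *Ifng*, *Il17a*, all receptor chains and the CD30 axis, and members that did not pass are named to account for a list. A few genes are not reported here by name or value, but stay in the fit and in the counts. Members and lists were chosen with earlier results of these data known, and the fibroblast list was added after seeing the data. Promoter sequences are from RefSeq (GRCm38.p6), with an entry for 7817 of the genes tested. Alternatives were another pseudocount, filter, scaling, fit, replicate block and row choice, and each library left out. Python 3.11.15, pandas 2.3.3 and matplotlib 3.10.9 were used.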

Additional observations from a re-analysis of the deposited data

How the results depend on the processing

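Without 1 library, and so with a smaller n, there were 1040 to 1238 genes higher in Th17 and 621 to 778 lower. A filter at a mean FPKM of 5 left 8246 genes and 1067 higher, and a difference of at least 1 as a further condition left 519 higher and 390 lower. The other alternatives gave 1501 to 2650 higher and 881 to 1473 lower; without a filter, 17332 genes were tested. The labels state no pairing by replicate number, and the replicate differences of the subsets correlated at 0.251 across genes; the 10 most abundant genes held 15.7% to 20.0% of FPKM in every replicate 1 and 10.3% to 11.7% in every replicate 2. A fit with the replicate block gave 2406 higher and 1426 lower, with 5 glycolysis genes higher, 5 JAK, STAT and SOCS genes lower and 8 naïve and memory genes lower. A restriction to genes with status OK, chosen after seeing the data, gave 1853 and 1081.

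Of 1424 values of the 96 named genes under alternatives, 1357 kept direction and side of the threshold, 62 no longer passed (44 of these with a library left out), 2 newly passed and 3 reversed. The reversed values belong to chains that did not pass in the first place: *Il1rap* at -0.10 after quantile normalization, *Il2rb* at 0.01 without Th1 replicate 2 (-0.22 to 0.01 over the libraries left out) and *Il2rg* at -0.02 without Th17 replicate 2 (-0.02 to 0.23). The cause was not tested. At a mean FPKM of 5 the genes higher in Th17 became 0 for the Th2, regulatory and follicular and the B cell lists, 2 for integrins, 3 for chemokine ligands, and 4 each for chemokine receptors and TNF genes. Genes near 1 FPKM rest on few fragments and are the least certain.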

Other observations

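Some further genes, picked after their values were seen, were higher in Th1 than in Th17. Of the HIN-200 family, whose members sense nucleic acids and respond to interferon, *Ifi203* was at 45.6 and 41.5 FPKM in Th1 and 4.27 and 2.93 in Th17 (-3.29), *Ifi202b* at 111.9 and 103.5 against 15.8 and 10.4 (-2.97) and *Pyhin1* at 18.9 and 19.3 against 1.29 and 1.56 (-3.05). *Mndal* had the same direction (49.1 and 48.3 in Th1, -2.92). The naïve libraries were above Th1 for *Ifi203* (95.1 and 85.3), *Mndal* (125.0 and 120.3) and *Pyhin1* (36.8 and 38.0). For *Ifi202b* they were below it (0.302 and 0.58). These genes lie in 1 cluster of related sequences, so reads may be shared among them.

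*Sparc*, which encodes a matrix protein, was at 14.4 and 21.2 in Th1 against 0.355 and 0.593 in Th17 (-3.65), opposite to *Lum* and *Dcn*. Over all small RNA features, 165 were tested, of which 7 were higher and 5 lower in Th17, beside 16.7% and 9.8% of all genes tested.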
